A study of Mus musculus with 7 samples.

Results

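The genes of the vascular endothelial growth factor (VEGF) and angiopoietin axis are described here across the cell types of the mouse mammary gland and across age. They were taken by symbol, as 10 rows of the 27998 genes of the deposited matrix of unique molecular identifier (UMI) counts: the ligands Vegfa, Vegfc and Pgf, the VEGF receptors Flt1, Kdr and Flt4, the co-receptor Nrp1, and Angpt2 with the receptor Tek and its partner Tie1. All 10 were in the matrix. The data were 13684 single cells from the abdominal #4 mammary glands, lymph nodes removed, of 7 untreated nulliparous females taken in diestrus, of mixed background (FVB, 129 and C57BL/6J). Young mice (A, B and C) were 3 to 4 months old and aged mice (A, B, C and D) 13 to 14 months old, so each age had 3 or 4 animals, each 1 library. The cells carried the 13 type names given by the study, among them hormone-sensing (HS) and secretory alveolar (AV) luminal cells.

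VEGF ligands are secreted proteins that bind receptor tyrosine kinases on endothelium and drive the growth, survival and permeability of vessels. VEGFR2, the product of Kdr, carries most of that signal, VEGFR1 (Flt1) binds the same ligand tightly with weak kinase activity and also acts as a decoy, and VEGFR3 (Flt4) with its ligand Vegfc serves lymphatic vessels. Angiopoietins act through the receptor Tie2, encoded by Tek: angiopoietin-1 stabilises vessels, and Angpt2, stored and released by endothelial cells, opposes or modulates that signal in a context-dependent way. In the mammary gland, the vessel bed around ducts and alveoli is remodelled through the reproductive cycle.

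Totals per library ran from 6652599 to 16999625 UMIs and the median cell of a library held 4758.5 to 7109.5 UMIs. The members differed widely in depth: Flt1 was read in 6190 UMIs, Nrp1 in 5998, Kdr in 3271, Pgf in 1712, Vegfa in 1632, Tie1 in 1337, Tek in 1240, Angpt2 in 1025, Vegfc in 704 and Flt4 in 171. Levels are CPM, a gene's UMIs over all UMIs of the cells of 1 type in 1 mouse on a fixed scale, used where a mouse had at least 3 cells of the type, and are compared within a gene, since 3′ tags are not scaled between genes. Libraries shared 101 cell barcodes, in 1 to 10 instances per pair of libraries and in pairs within and between the ages. The barcodes are written in 2 stretches for all 3 young libraries and in 1 for all 4 aged libraries. Whether the libraries of both ages were prepared together is not given in the sources used here, so age and library preparation cannot be told apart. Cells recovered also differed with age (myoepithelial cells, 281 young and 1389 aged; fibroblasts, 1799 young and 194 aged), and shares of cells after dissociation are not shares in the tissue.

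Positions of 3 members on which the age comparisons turn are given here with the 250 bases before their first RefSeq transcript start (GRCm38.p6, 5′ to 3′ on the gene's strand). The genes lie at chr17:46016993-46032369 for Vegfa, chr5:147561604-147726011 for Flt1 and chr5:75932827-75978458 for Kdr, all on the minus strand. These stretches are shown because Kdr and Flt1 were called lower and Vegfa higher with age in the same endothelial sums. Those calls held in 20 of 21 alternative settings for Kdr, 18 of 21 for Flt1 and only 10 of 18 for Vegfa. A part of these sequences in the differences was not tested. Capitals mark every match on either strand to GGGCGG (the GC box), ACGTG (a form of the core of the oxygen-response element), and CAGGAA or CCGGAA (forms of the ETS site). Other forms of these sites were not searched and are not marked.
Vegfa chr17:46032378-46032627 (- strand): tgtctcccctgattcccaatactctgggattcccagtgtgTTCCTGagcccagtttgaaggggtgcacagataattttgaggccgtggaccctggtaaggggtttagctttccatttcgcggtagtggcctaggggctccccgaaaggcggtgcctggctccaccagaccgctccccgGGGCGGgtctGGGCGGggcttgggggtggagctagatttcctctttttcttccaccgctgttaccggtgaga
Flt1 chr5:147726012-147726261 (- strand): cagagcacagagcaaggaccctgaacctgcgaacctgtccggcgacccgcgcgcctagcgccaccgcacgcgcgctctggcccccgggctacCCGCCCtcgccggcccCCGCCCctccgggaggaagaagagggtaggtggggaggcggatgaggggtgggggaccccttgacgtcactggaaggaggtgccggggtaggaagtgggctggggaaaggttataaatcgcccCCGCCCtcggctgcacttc
Kdr chr5:75978456-75978705 (- strand): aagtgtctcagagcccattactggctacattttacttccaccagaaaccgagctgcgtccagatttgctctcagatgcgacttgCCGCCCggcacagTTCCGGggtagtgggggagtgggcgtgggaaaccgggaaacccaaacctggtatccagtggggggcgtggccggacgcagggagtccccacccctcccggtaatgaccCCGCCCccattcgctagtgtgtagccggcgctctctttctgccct

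Over 32851 promoter stretches of the same length, GGGCGG was found in 32.7%, CAGGAA in 25.7%, ACGTG in 16.6% and CCGGAA in 12.03%. The Vegfa stretch held 2 GC boxes and 1 CAGGAA (read as TTCCTG on the strand shown), that of Flt1 3 GC boxes, and that of Kdr 2 GC boxes and 1 CCGGAA. No ACGTG lay in any of these 3 stretches, and 1 lay in the stretch before a second Vegfa start. RefSeq stretches matched 9 of the 10 members, all but Angpt2. A match of letters is a description of the sequence and does not mark a bound site.

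The ligands Vegfa and Pgf were read in many cell types, whereas Flt1, Kdr, Flt4 and Tie1 were highest in endothelial cells and the cells named pericytes. Nrp1 and Tek were highest there too but were also read in fibroblasts, and Nrp1 in Ma macrophages. The cell types were clustered on these same genes, so levels by type are given as a description with no test. Vegfa was highest in myoepithelial cells, the contractile basal layer of the ducts, at 72.1 ± 44.8 CPM (SD, n = 7), and was above fibroblasts (33.9 ± 13.4 CPM) in 7 of 7 mice, although the ranges over mice overlapped. That gap was smaller in young mice: log2(CPM + 1) in myoepithelial cells minus that in fibroblasts was 0.04 to 0.64 in young and 0.73 to 2.05 in aged mice. Fibroblasts were in turn above HS cells (17.2 ± 8.31 CPM) in 6 of 7 mice. AV cells held 8.84 ± 3.92 CPM and vascular endothelial cells 6.70 ± 2.59 CPM. A Vegfa UMI was seen in 28.7% of myoepithelial cells (median 4431 UMIs per cell) and in 3.19% of vascular endothelial cells (median 4907 UMIs). Their 95% Wilson intervals of 26.6% to 31.0% and 2.47% to 4.10% cover counting error only. Most of these myoepithelial cells were aged, and by mouse their share was 8.02% to 15% in young and 29.7% to 40.5% in aged mice.

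Pgf, placental growth factor, a ligand of VEGFR1, was spread over many types with no clear order. Its mean was 45.6 ± 61.9 CPM (SD, n = 7) in vascular endothelial cells, 33.6 ± 26.4 CPM in fibroblasts, 32.7 ± 22.2 CPM in pericytes and 30.8 ± 21.3 CPM in myoepithelial cells, and vascular endothelial cells were above fibroblasts in 3, and fibroblasts above pericytes in 4, of 7 mice. HS cells stood at the low end, at 1.20 ± 0.5676 CPM. Vegfc was highest in vascular endothelial cells (28.1 ± 19.2 CPM) and in the cells named pericytes (23.6 ± 11.3 CPM), which did not separate (4 of 7 mice). Fibroblasts held 14.4 ± 9.75 CPM of Vegfc and AV cells 6.25 ± 2.54 CPM. In lymphatic endothelial cells, no Vegfc UMI was read, which allows up to 17.6 CPM at their depth.

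Flt4, Flt1 and Nrp1 separated blood from lymphatic endothelium. Lymphatic endothelial cells were few (28 cells, 5 mice with at least 3), and 60.7% of them held a UMI of Prox1, the lymphatic master regulator, against 0.990% of vascular endothelial cells. Flt4 was 256 ± 133 CPM (SD, n = 5) there (range 141 to 422 CPM) and 7.70 ± 5.84 CPM in vascular endothelial cells, ranges that did not overlap. Flt4 was itself among the study's markers for naming these cells, so this contrast is not an independent result. Tie1 was also higher in lymphatic than in vascular endothelial cells in 5 of 5 mice, 199 ± 76.9 CPM against 109 ± 28.04 CPM, with overlapping ranges. Kdr did not separate them (255 ± 71.2 CPM against 242 ± 156 CPM, higher in 4 of 5 mice).

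Flt1 and Nrp1 behaved the other way round: vascular endothelial cells held 464 ± 189 CPM of Flt1 and 351 ± 230.1 CPM of Nrp1, and the 28 lymphatic cells held no UMI of either, which allows up to 17.6 CPM. A Flt1 UMI was present in 80.1% of vascular endothelial cells, in 3.86% of fibroblasts and in 0 of 28 lymphatic cells, with median depths of 4907, 4414 and 6050.5 UMIs per cell. Outside the endothelium, Nrp1 reached 115 ± 52.9 CPM in fibroblasts, where 31.7% of cells held a UMI. In Ma macrophages, which only young mice held in numbers of at least 3, Nrp1 was 223, 279 and 252 CPM in Young A, B and C. Their Flt1 was 56.9 ± 43.8 CPM and their Kdr 58.0 ± 39.5 CPM, beside a Pecam1 or Cdh5 UMI in 19.8% of the young Ma cells. The part of endothelial RNA in these macrophage values was not tested.

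Of the angiopoietin arm, Angpt2 was highest in vascular endothelial cells (73.0 ± 18.6 CPM (SD, n = 7)), followed by lymphatic endothelial cells at 65.6 ± 98.8 CPM over 5 mice, 3 of them at 0, and pericytes (47.4 ± 14.4 CPM). Fibroblasts held 23.9 ± 17.3 CPM, below pericytes in 6 of 7 mice. Tek was not confined to endothelium: it was 62.1 ± 21.1 CPM in vascular endothelial cells, 48.3 ± 35.5 CPM in pericytes and 41.2 ± 19.7 CPM in fibroblasts, and pericytes were above fibroblasts in only 3 of 7 mice. A Tek UMI was seen in 18.5% of fibroblasts against 0.240% of myoepithelial cells at like depth (medians of 4414 and 4431 UMIs). In the same fibroblasts, Tie1, the partner of Tie2, was 1.96 ± 2.96 CPM, and a Tie1 UMI was seen in 1.61% of cells.

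**Figure D1:**
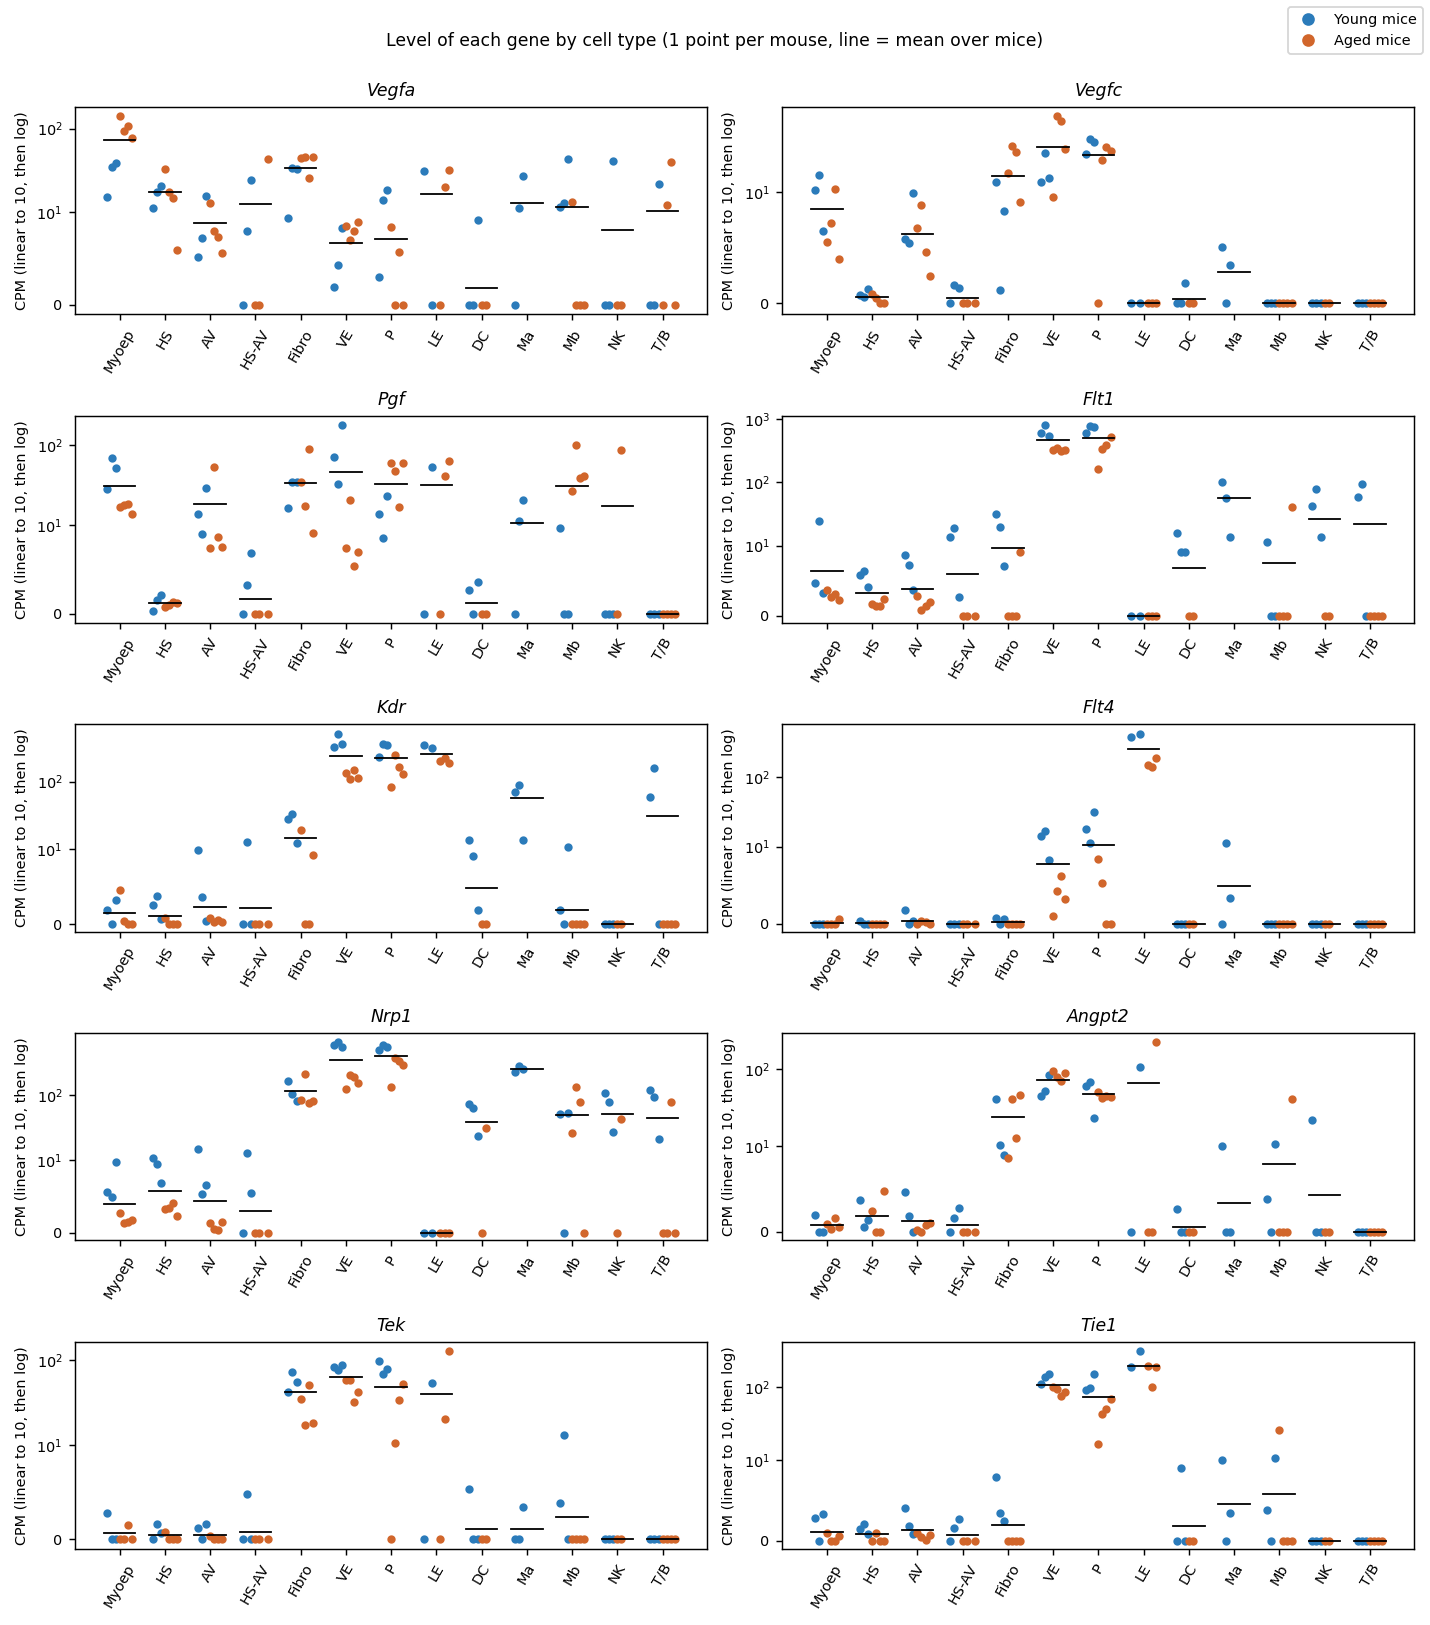
Level of each gene in CPM (vertical axes, linear to 10 CPM and logarithmic above) in each of the 13 cell types, with 1 point per mouse, blue for young and orange for aged, and a line at the mean over mice. Myoep is myoepithelial cells, Fibro fibroblasts, P pericytes, DC dendritic cells and T/B lymphocytes, Ma and Mb are macrophages, and VE and LE are the vascular and lymphatic endothelium; Vegfa peaks in Myoep, Flt4 in LE, and Flt1 and Nrp1 are at 0 in LE.

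Age was first compared for the ligands in the epithelium. Aged was compared with young in each type over mice by edgeR's quasi-likelihood test, and calls needed a difference of at least 1.5-fold beside an adjusted p (Benjamini-Hochberg over the genes tested in that type) under 0.05. Log2 differences are aged minus young throughout. In myoepithelial cells, Vegfa was 15.1, 34.4 and 39.0 CPM in Young A, B and C and 139.6, 92.7, 108 and 76.4 CPM in Aged A, B, C and D. The ages did not overlap, and every aged mouse was above every young mouse. The means were 29.5 ± 12.7 CPM (SD, n = 3) for young mice against 104 ± 26.9 CPM (SD, n = 4) for aged mice, and the fit gave a log2 difference of 2.15 ± 0.32 (SE), adjusted p = 0.000170. Pgf went the other way in the same cells, at 28.3, 68.8 and 51.9 CPM in Young A, B and C and 16.5, 17.9, 18.5 and 13.7 CPM in Aged A, B, C and D. All 4 aged values lay below the young range, with a log2 difference of -1.28 ± 0.32 (SE), adjusted p = 0.00669. Markers of some other types fell with Pgf in these cells. The 7 fibroblast markers summed to 656 CPM (447 to 821) in young and 139 CPM (55.3 to 190.2) in aged mice. The 6 capillary markers summed to 289 CPM (220.0 to 349) and 70.0 CPM (39.4 to 94.6), with all markers of both lists read. HS luminal markers also fell, from 114 to 26.4 CPM. Other lists did not: lymphatic markers summed to 147 CPM (134 to 156) in young and 414 CPM (274 to 694) in aged mice. AV luminal markers were 1375 and 1355 CPM, and the endothelial and venous lists overlapped between the ages. The 7 myoepithelial markers were 17420 CPM (13846 to 20822) and 12744 CPM (11219 to 13720). Their part in the Vegfa and Pgf differences was not tested. Vegfc, the other member that passed the filter on low counts there, gave -0.55 (adjusted p = 0.412). So 2 of 3 tested members were called, in a type in which 27.6% of all genes tested were called.

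In HS cells, AV cells and fibroblasts Vegfa was not called. HS cells held 11.3, 17.5 and 20.8 CPM in Young A, B and C and 32.5, 17.5, 14.9 and 5.91 CPM in Aged A, B, C and D, and the fit gave 0.23 (adjusted p = 0.772). AV cells gave -0.0082 (adjusted p = 0.996) and fibroblasts 0.90 (adjusted p = 0.324). Whether the age difference of myoepithelial cells exceeded that of another type was tested per mouse, as the log2(CPM + 1) of Vegfa in myoepithelial cells minus that in the other type. Against HS cells this value was 0.73 ± 0.30 (SD, n = 3) for young and 2.67 ± 0.62 (SD, n = 4) for aged mice, a rise of 1.93 (exact two-sided permutation test over 35 divisions, p = 0.0286, adjusted p = 0.0571 over 6 such results). Against AV cells it rose by 1.91 (exact permutation p = 0.0286, adjusted p = 0.0571), and against fibroblasts by 1.04 (exact permutation p = 0.0571, adjusted p = 0.0686). The smallest p that 3 against 4 mice allow is 0.0286, reached by the first 2 of these, and none passed 0.05 after adjustment.

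The direction of the background depends on scaling. With TMM, the share of called genes that were higher with age was 46.4% for myoepithelial, 62.8% for HS and 47.1% for AV cells, 65.1% for fibroblasts, 60.9% for pericytes and 55% for vascular endothelial cells. With library size scaling the shares were 36.2%, 39.2%, 18.1%, 49.5%, 34.3% and 22.4%, as the median over all genes moved to between -0.10 and -0.41. The calls of Vegfa and Pgf in myoepithelial cells, of Nrp1 in HS and AV cells and of Tek in pericytes held under both scalings, and those that did not lie in vascular endothelial cells.

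The recovered cells that carried Vegfa RNA differed with age as well. Epithelial cells (myoepithelial, HS, AV and HS-AV) supplied 59.6%, 52.1% and 50.3% of all Vegfa UMIs in Young A, B and C and 88.2%, 95.3%, 89.4% and 89.7% in Aged A, B, C and D. The ages did not overlap (means 54.0% ± 4.93 and 90.7% ± 3.15, SD, exact permutation p = 0.0286, adjusted p = 0.0571). The share from myoepithelial cells was 3.09% to 17.0% in young and 46.4% to 68.7% in aged mice, while that from fibroblasts was 26.6% to 41.8% and 1.32% to 8.50%. These shares join the level per cell to the number of cells recovered, which moved the same way: 187, 40 and 54 myoepithelial cells came from the young mice and 262, 662, 125 and 340 from the aged mice.

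**Figure D2:**
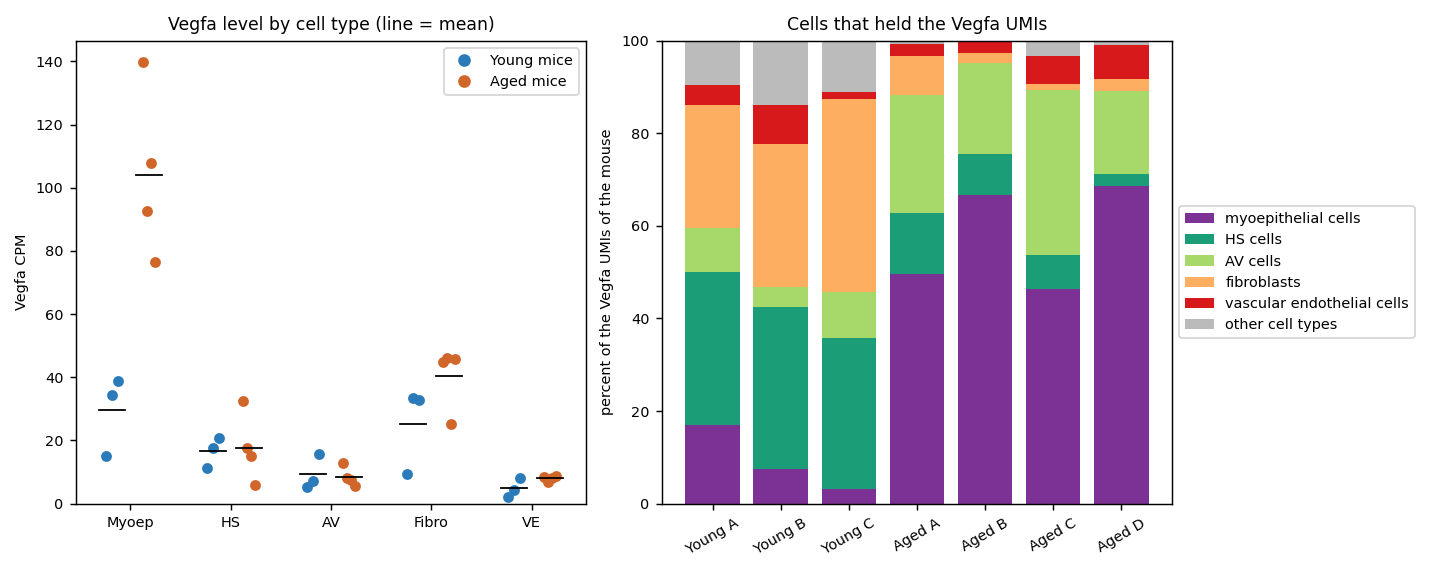
Left, Vegfa level in CPM per mouse (points, young blue and aged orange, line at the mean) in myoepithelial (Myoep), HS, AV, fibroblast (Fibro) and vascular endothelial (VE) cells. Right, percent of each mouse's Vegfa UMIs by cell type (stacked bars); the 4 aged mice lie between 76.4 and 139.6 CPM in myoepithelial cells and the 3 young mice between 15.1 and 39.0 CPM, while in the other types the ages overlap.

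Vascular endothelial cells, where most members are read, carried the broadest difference with age. All 10 members passed the filter, 3 were called higher in aged mice (Vegfa, Vegfc, Angpt2) and 5 lower (Pgf, Flt1, Kdr, Flt4, Nrp1), and their median log2 difference was -0.54 against -0.05 over all genes tested. In the same type 26.7% of 7864 genes tested were called, 14.7% higher and 12% lower. The type name matches its markers: 99.0% of the 1819 cells held a Pecam1 or Cdh5 UMI. Scaling bears on each direction here. With library size scaling in place of TMM, the median over all genes moved from -0.05 to -0.41. Under it the 5 lower calls remained, the 3 higher members kept their sign but were no longer called, at 0.98 (adjusted p = 0.0820) for Vegfa, 1.08 (adjusted p = 0.0612) for Vegfc and 0.50 (adjusted p = 0.0763) for Angpt2, and Tek was called lower, at -0.81 (adjusted p = 0.00721).

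Among the receptors, Kdr, the main signalling receptor, was 319.7, 510.1 and 357 CPM in Young A, B and C and 133, 108, 149.7 and 114 CPM in Aged A, B, C and D. Young and aged values were far apart, and the means were 396 ± 101 CPM (SD, n = 3) for young mice against 126 ± 19.1 CPM (SD, n = 4) for aged mice (a log2 difference of -1.31 ± 0.19 (SE), adjusted p = 0.000202). Flt1, the decoy receptor, was 602, 803 and 532 CPM in Young A, B and C and 322, 351, 316 and 322 CPM in Aged A, B, C and D. The lowest young mouse was above the highest aged mouse, with a log2 difference of -0.63 ± 0.15 (SE), adjusted p = 0.00745. Nrp1, which presents VEGF to VEGFR2, was 595, 642 and 544 CPM in Young A, B and C and 125, 203, 193 and 156 CPM in Aged A, B, C and D. This was the member with the smallest adjusted p, and the ages were again separate (a log2 difference of -1.46 ± 0.16 (SE), adjusted p = 2.36e-05). Flt4 was read in few UMIs and was 14.1, 16.9 and 8.25 CPM in Young A, B and C and 1.06, 4.19, 6.24 and 3.17 CPM in Aged A, B, C and D, with a log2 difference of -1.52 ± 0.41 (SE), adjusted p = 0.0127. Without Young B, Flt1 (-0.43, adjusted p = 0.0569) and Flt4 (-1.29, adjusted p = 0.0774) were no longer called, and 4 of the 10 members remained called; 5 did without Young A.

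Both main receptors were called lower, and their ratio was compared between the ages. The log2 ratio of Flt1 to Kdr UMIs, which no scaling touches, was 0.91, 0.65 and 0.57 in Young A, B and C and 1.27, 1.70, 1.08 and 1.50 in Aged A, B, C and D. Every aged value lay above the young ones, and the means were 0.71 ± 0.18 (SD, n = 3) and 1.39 ± 0.27 (SD, n = 4). The exact two-sided permutation test gave p = 0.0571 and adjusted p = 0.0686, so a difference in the ratio did not pass the test.

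Of the ligands read in these cells, Pgf was 70.4, 32.7 and 176 CPM in Young A, B and C and 7.42, 20.3, 5.35 and 6.98 CPM in Aged A, B, C and D. The young mice spread over a range wider than their mean, yet each was above all aged mice, with a log2 difference of -2.73 ± 0.54 (SE), adjusted p = 0.00189. Vegfc was 12.6, 24.5 and 13.7 CPM in Young A, B and C and 9.54, 57.3, 51.7 and 27.3 CPM in Aged A, B, C and D. Here the ages overlapped, Aged A lying below every young mouse, and the fit gave a log2 difference of 1.43 ± 0.44 (SE), adjusted p = 0.0251. That call was lost without Young A, Young C, Aged B or Aged C (log2 differences of 1.17 to 1.36). Vegfa was low in these cells, at 1.94 to 8.25 CPM in young and 6.98 to 8.89 CPM in aged mice, with a log2 difference of 1.34 ± 0.44 (SE), adjusted p = 0.0346. The ages overlapped, and the call was lost without Young A (0.83, adjusted p = 0.203), Young B, Aged C or Aged D.

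In the angiopoietin arm, Angpt2 was 44.7, 52.3 and 83.8 CPM in Young A, B and C and 94.3, 78.2, 69.5 and 88.2 CPM in Aged A, B, C and D. Young C lay within the aged range, and the call rested on a log2 difference of 0.86 ± 0.23 (SE), adjusted p = 0.0123. Without Young A (0.65, adjusted p = 0.0715) or without Young B (0.79, adjusted p = 0.0612) the gene was no longer called. The share of endothelial cells with an Angpt2 UMI, each cell thinned to 2000 UMIs, was 9.55% ± 1.62 (SD, n = 3) for young and 12.2% ± 2.81 (SD, n = 4) for aged mice, a difference within the spread over mice (exact permutation p = 0.257). Unthinned, 21.7% of all vascular endothelial cells held an Angpt2 UMI. Tek was 82.1, 76.8 and 88.0 CPM in Young A, B and C and 57.2, 57.3, 32.1 and 41.3 CPM in Aged A, B, C and D. Each aged value was below the young range in CPM, but after TMM scaling the difference was -0.45 (adjusted p = 0.108) and was not called. Tie1, at 135 ± 21.3 CPM (SD, n = 3) for young mice against 90.2 ± 11.2 CPM (SD, n = 4) for aged mice, gave -0.22 (adjusted p = 0.355). The ages did not overlap in Tie1 CPM either.

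**Figure D3:**
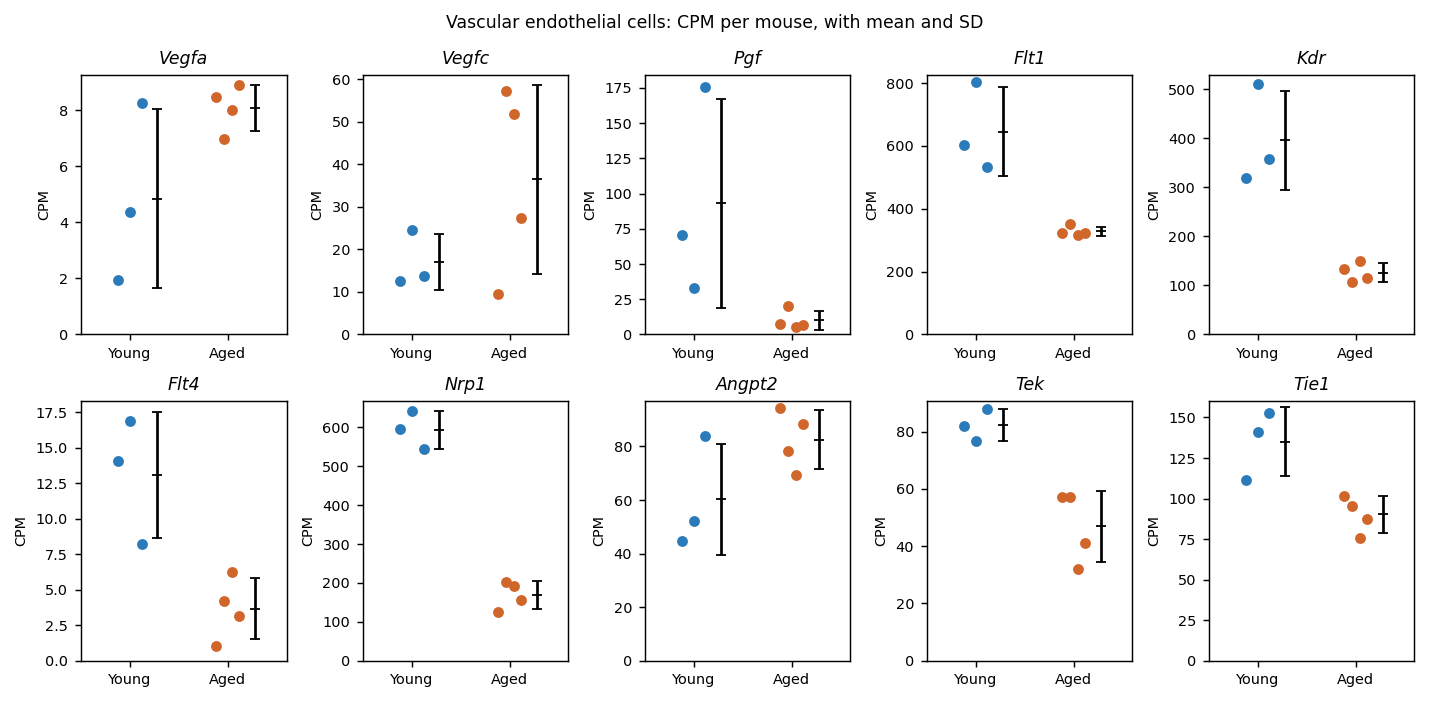
CPM of each member gene in vascular endothelial cells, one point per mouse for 3 young and 4 aged mice, with the mean and SD drawn beside them; each panel has its own vertical axis starting at 0. Kdr, Flt1, Nrp1, Pgf and Flt4 show no overlap between the ages, and neither do Tek and Tie1, which were not called with TMM scaling. CPM is not TMM-scaled, and with library size scaling the median log2 difference over all genes was -0.41. Vegfa, Vegfc and Angpt2 overlap, and these 3 were called higher with TMM scaling and not with library size scaling.

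The levels of vessel-segment markers in this type moved with age, beside every value above. Whether the mixture of cells or the expression within them changed was not tested. The summed level of 6 capillary markers was 8803 CPM (range 7734 to 10052.5) in young and 1737 CPM (1527 to 2006) in aged mice, and 5 of the 6 were lower in every aged mouse, Cyp4b1 being the exception. The 7 venous markers summed to 1937 CPM (1799 to 2207) in young and 7252 CPM (6521 to 7801) in aged mice. Of these 7, Ackr1, Selp, Lrg1 and Sele were higher in every aged mouse and Nr2f2, Ephb4 and Vwf overlapped. Means in young and aged mice were 75.4 and 52.2 CPM for Nr2f2, a defining venous factor, and 31.7 and 23.0 CPM for Ephb4. Those of Vwf were 113 and 190 CPM. The venous genes thus did not move together. The 7 arterial markers summed to 582 CPM (568.3 to 596) and 357 CPM (209.8 to 567.7). Genes of the dissociation response summed to 15188 CPM (13073 to 17815) in young and 11002 CPM (10193 to 12787) in aged mice. The 7 general endothelial markers summed to 6493 CPM (5852 to 6877) in young and 4512 CPM (4130 to 4896) in aged mice, of which Cdh5, Egfl7 and Cldn5 were lower and Emcn higher in every aged mouse. Pericyte markers in these cells summed to 228 CPM (121 to 414) and 44.2 CPM (7.68 to 79.3), and fibroblast markers to 252 CPM (83.8 to 389) and 50.7 CPM (43.3 to 67.8). The part of these shifts in the members' differences was not tested beyond the refits that follow.

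Cells with more capillary than venous marker UMIs made up 77.3%, 84.1% and 83.4% of vascular endothelial cells in Young A, B and C and 14.6%, 15.8%, 18.03% and 15.7% in Aged A, B, C and D. Refitting age within these cells and within those with more venous UMIs, a split chosen after the data were seen, left fewer calls. Each refit had few cells from either the young or the aged mice. Cells with more capillary UMIs numbered 316, 318 and 121 in the young mice and 25, 45, 33 and 39 in the aged mice. Cells with more venous UMIs numbered 90, 59 and 24 in the young mice and 145, 235, 147 and 207 in the aged mice. Genes tested were 3138 and 5903, against 7864 over all vascular endothelial cells. A call lost in a refit therefore does not show that the age difference is absent there. Within the capillary-leaning cells, 2 of 8 tested members were called, where 8.89% of all genes tested were. Kdr was 366, 579.5 and 386 CPM in Young A, B and C and 153, 151, 163 and 163 CPM in Aged A, B, C and D there. The difference was close to that over all vascular endothelial cells, at -1.42 ± 0.22 (SE), adjusted p = 0.00341. Vegfc was 10.7, 25.6 and 13.1 CPM in Young A, B and C and 14.6, 195, 219 and 85.7 CPM in Aged A, B, C and D. It was called higher, at 3.01 ± 0.55 (SE), adjusted p = 0.00788, with Aged A inside the young range. Nrp1 gave -0.78 (adjusted p = 0.0827), Flt1 -0.26 (adjusted p = 0.472), Pgf -1.34 (adjusted p = 0.283) and Tie1 -0.67 (adjusted p = 0.117). Angpt2, at -0.33 (adjusted p = 0.683), and Tek, at 0.21 (adjusted p = 0.640), had the opposite sign to that over all cells, and neither was called.

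Within the venous-leaning cells, 2 of 7 tested members were called, where 11.4% of all genes tested were. Nrp1 was 296, 412 and 363 CPM in Young A, B and C and 116, 151, 138 and 114 CPM in Aged A, B, C and D there and was called lower, at -1.14 ± 0.18 (SE), adjusted p = 0.00158. Tek was 100.1, 94.1 and 118 CPM in Young A, B and C and 54.8, 50.6, 19.8 and 33.1 CPM in Aged A, B, C and D. It was also called lower, at -1.06 ± 0.30 (SE), adjusted p = 0.0309. Kdr gave -0.23 (adjusted p = 0.527), Flt1 -0.37 (adjusted p = 0.219), Angpt2 0.52 (adjusted p = 0.304) and Vegfc 0.23 (adjusted p = 0.810). Pgf, with 0 to 2.22 CPM in young mice, did not pass the filter. Whether the age difference of any member differed between the leanings was not tested. The lists used for this split hold 4 venous and 5 capillary genes that themselves moved with age, so the leaning of a cell is not independent of age.

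**Figure D4:**
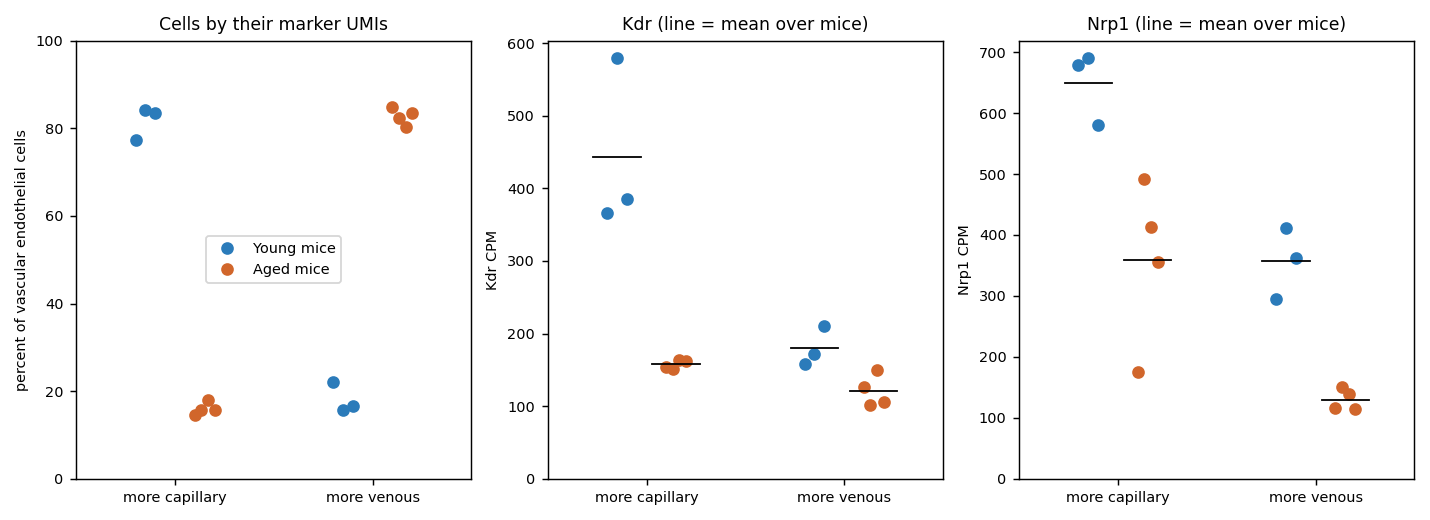
Left, percent of vascular endothelial cells with more capillary or more venous marker UMIs in each mouse (young blue, aged orange); middle and right, Kdr and Nrp1 in CPM in those cells, with a line at the mean over mice. Kdr lies at 366 to 580 CPM in young and 151 to 163 CPM in aged capillary-leaning cells, and at 158 to 211 and 102 to 149 CPM in venous-leaning cells.

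Single endothelial cells also differed in which members they carried together, described within each mouse and without a test. The 189 vascular endothelial cells with a Vegfc UMI, set against the 1630 without, held more arterial marker UMIs in 7 of 7 mice (1063 against 357 CPM, means over mice). They also held more Tek (104 against 57.2 CPM) and Flt1 (573 against 449.6 CPM) in 7 of 7 mice, and less Angpt2 in 7 of 7 (23.4 against 79.9 CPM). Genes of the dissociation response were higher in them in 7 of 7 mice too (18874 against 11897 CPM). The 395 cells with an Angpt2 UMI held less Vegfc (7.71 against 35.4 CPM) in 7 of 7 mice, which is the same relation read from the other side. They also held less Tek (45.3 against 67.4 CPM), Nrp1 (298 against 369 CPM) and dissociation-response RNA (9034 against 14008 CPM) in 7 of 7 mice. Median depths were 5187 and 4893 UMIs for cells with and without Vegfc, and 5302 and 4858 for Angpt2.

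Pgf was carried by 94 vascular endothelial cells. In each of the 7 mice these held less Plvap, the diaphragm protein of fenestrated endothelium, than the other cells (642 against 1321 CPM). Apln, a tip-cell ligand, averaged 50.8 against 3.32 CPM over mice, with the higher value in the Pgf-bearing cells of 4 of 7 mice. Both Pgf and Apln rest on few cells per mouse.

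The cells named pericytes are described with a limit on their name. Pericytes should lack endothelial RNA, yet 279 of 349 cells (79.9%) held a Pecam1 or Cdh5 UMI, against 99.0% of vascular endothelial cells, 6.82% of fibroblasts and 4.58% of HS cells. The share was 94.4% (218 of 231 cells) in young and 51.7% (61 of 118 cells) in aged mice. Only 2 of the 349 cells were called doublets. Pericyte markers (Rgs5, Des, Notch3 and 4 others) summed to 1603 CPM (1311 to 1898) in young and 1297 CPM (1159 to 1535) in aged mice. Other lists moved in these cells too. The myoepithelial list, which holds Acta2 and Mylk, was 1433 CPM (1357 to 1541) and 4872 CPM (3581 to 7547). Fibroblast markers were 636 CPM (496 to 883) and 111 CPM (50.9 to 202). AV luminal markers were 496 CPM (361 to 680) and 1733 CPM (577 to 2495). Their part in the members' values was not tested. The members are given in these cells by age, pooled over mice and with no test, since most cells with endothelial UMIs were young and most without were aged. In the young mice the cells with endothelial UMIs held 689.9 CPM of Flt1, 300.3 CPM of Kdr and 87.6 CPM of Tek, and the 13 cells without held 366, 99.9 and 33.3 CPM (22, 6 and 2 UMIs). In the aged mice the cells with endothelial UMIs held 586, 285 and 39.8 CPM, and the 57 cells without held 28.04 CPM of Flt1 and no UMI of Kdr or Tek, which allows up to 12.02 CPM. Within each age these 3 receptors were thus lower in the cells without endothelial UMIs. Pgf was higher in them at both ages, at 99.9 against 9.36 CPM in young and 76.1 against 19.9 CPM in aged mice, from 6 to 19 UMIs each. Angpt2 showed no shared direction, at 57.8 CPM with and 16.6 CPM without endothelial UMIs in young mice (the latter from 1 UMI) and 31.3 and 64.1 CPM in aged mice (11 and 16 UMIs).

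**Figure D5:**
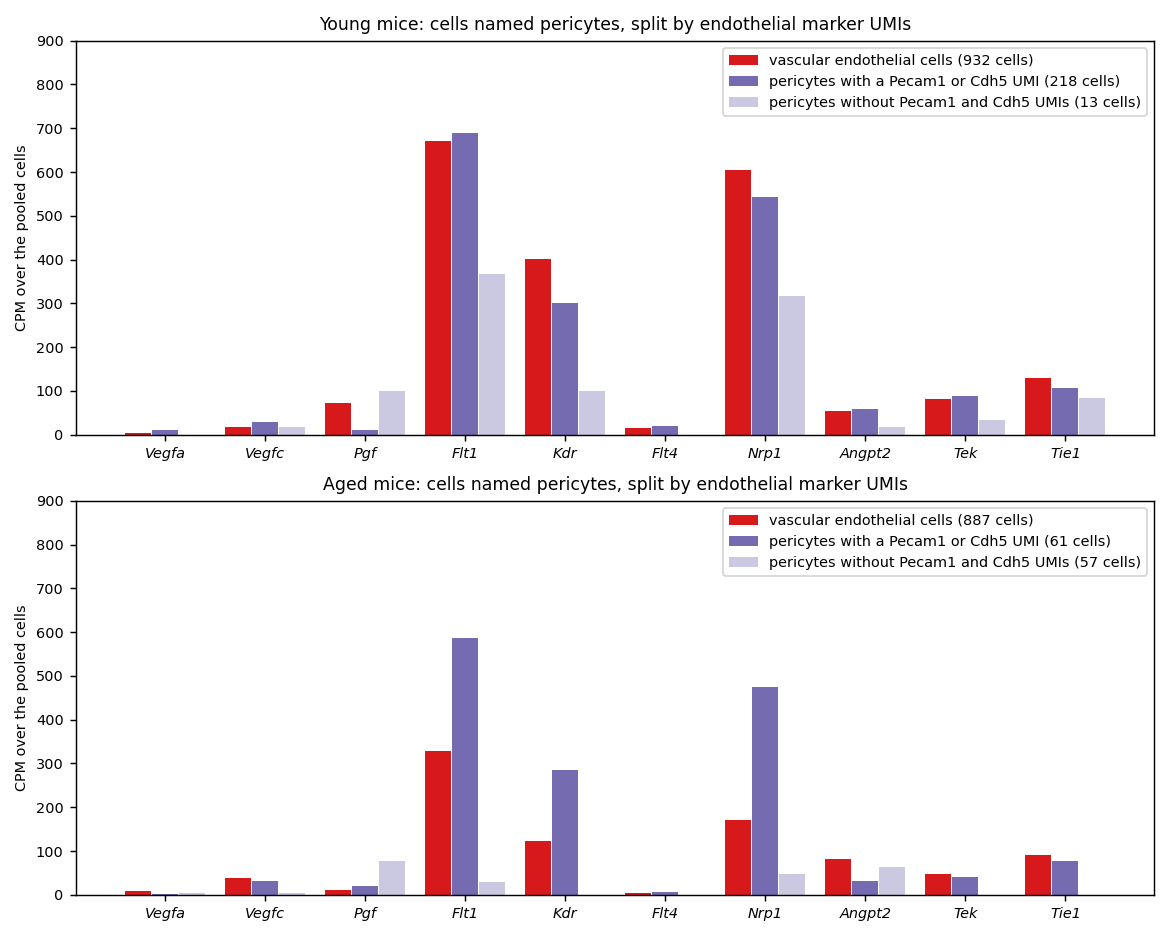
Pooled CPM of each member gene in vascular endothelial cells, in cells named pericytes with a Pecam1 or Cdh5 UMI and in those without, for young (top) and aged mice (bottom); bars start at 0 and pool the mice of an age, so they carry no error. Flt1 is higher in the cells with endothelial UMIs at both ages (689.9 against 366 CPM in young and 586 against 28.04 CPM in aged mice), while Pgf is higher in the cells without them.

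With age, 1 of the 5 members tested in pericytes was called, where 11.8% of all genes tested were. Tek was 96.4, 68.0 and 77.7 CPM in Young A, B and C and 0, 10.6, 33.9 and 51.5 CPM in Aged A, B, C and D. All aged values lay below the young ones, with a log2 difference of -1.64 ± 0.49 (SE), adjusted p = 0.0432. The call was lost without Young A (-1.45, adjusted p = 0.207), Young B, Young C, Aged A or Aged B, and with library size scaling all 5 members were called lower. Tie1 gave -1.12 (adjusted p = 0.0514), Flt1 -0.83 (adjusted p = 0.0716), Nrp1 -0.75 (adjusted p = 0.0758) and Kdr -0.79 (adjusted p = 0.0928). The summed endothelial markers moved the same way in these cells, 3818 CPM (3449 to 4141) in young and 2304 CPM (1946 to 2762) in aged mice. Within the cells with a Pecam1 or Cdh5 UMI, the pooled levels in young and aged mice were 689.9 and 586 CPM for Flt1, 300.3 and 285 CPM for Kdr and 87.6 and 39.8 CPM for Tek, while the share of such cells was 94.4% and 51.7%. These pooled values have no error over mice and were not tested.

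In the luminal epithelium, the called member was Nrp1, at low level. AV cells held 15.0034, 5.396 and 6.61 CPM in Young A, B and C and 1.32, 0.498, 0.409 and 1.45 CPM in Aged A, B, C and D, with a log2 difference of -3.13 ± 0.53 (SE), adjusted p = 0.00865, the 1 call among 5 tested members where 6.16% of all genes tested were called. Without Young A it was not called (-2.54, adjusted p = 0.0758). The summed endothelial markers in AV cells were 77.0 CPM (50.4 to 107) in young and 21.7 CPM (16.3 to 31.1) in aged mice, moving with Nrp1, and the summed fibroblast markers 293 CPM (91.7 to 424) and 20.2 CPM (10.6 to 37.2). Capillary markers were also lower, at 119 CPM (77.7 to 146) and 21.8 CPM (11.3 to 30.4). The arterial list did not fall, at 81.3 CPM (53.1 to 131) and 131 CPM (82.2 to 170). Nor did the venous list, at 249 CPM (123 to 326) and 272 CPM (173 to 422). Their part in the result was not tested. HS cells held 10.9, 9.55 and 6.86 CPM in Young A, B and C and 3.25, 3.41, 4.08 and 2.37 CPM in Aged A, B, C and D, with a log2 difference of -1.29 ± 0.34 (SE), adjusted p = 0.0494, 1 of 2 tested members where 6.26% of all genes tested were called. That call was kept in 6 of 16 alternative settings and was lost on leaving out any 1 of the 7 mice (-1.18 to -1.49, adjusted p = 0.0727 to 0.159). In HS cells the endothelial markers summed to 88.0 CPM (69.9 to 106) in young and 139 CPM (58.4 to 354) in aged mice. Fibroblast markers there summed to 133 CPM (67.9 to 185) and 911 CPM (290 to 1834), so neither list fell with Nrp1. The capillary markers were lower, at 74.9 CPM (35.1 to 97.6) and 19.0 CPM (12.2 to 27.2). The part of any list was not tested. Pgf in AV cells gave 0.25 (adjusted p = 0.881), with 1 aged mouse, Aged B, at 52.1 CPM beside 7.40 to 8.59 CPM in the other 3.

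In fibroblasts 0 of the 6 tested members were called by edgeR, beside 3.17% of all genes tested (1102 of 5513 genes had an unadjusted p under 0.05). Tek, the member with the smallest adjusted p there, was 41.5, 71.4 and 55.0 CPM in Young A, B and C and 34.5, 17.3, 50.6 and 18.3 CPM in Aged A, B, C and D, with -0.75 (adjusted p = 0.261). Angpt2 gave 0.15 (adjusted p = 0.953), Pgf 0.33 (adjusted p = 0.770), Nrp1 0.10 (adjusted p = 0.923) and Kdr -0.77 (adjusted p = 0.561). Aged C and D supplied 15 and 17 fibroblasts, which limits what could be detected. A Pecam1 or Cdh5 UMI was held by 7.50% of young and 0.515% of aged fibroblasts. In Mb macrophages no member passed the filter, in a fit of 859 genes. In lymphatic endothelial cells age was not tested. Kdr there was 345 and 317 CPM in Young A and C and 199, 222 and 191 CPM in Aged B, C and D, and Flt4 was 376 and 422 CPM in Young A and C and 149, 141 and 191 CPM in Aged B, C and D. The young values were above the aged ones for both, from 3 to 7 cells per mouse.

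The wider pathway was followed through 64 further genes, 63 of them in the matrix: other ligands, co-receptors and partners, signalling proteins, endothelial response genes, oxygen-sensing factors, and matrix binders and inhibitors. In vascular endothelial cells, 41 passed the filter, 9 were called higher and 10 lower with age, where 14.7% and 12% of all genes tested in this type were, and their median log2 difference was -0.26 against -0.05 over all genes. The endothelial response genes split, 4 higher and 3 lower of 11 tested. Kcne3, a potassium channel subunit, rose by 3.26 (adjusted p = 0.00466) on the log2 scale, and Rcan1, a calcineurin regulator induced by VEGF, by 2.23 (adjusted p = 8.72e-06). Unc5b, a netrin receptor of tip and arterial cells, changed by -2.75 (adjusted p = 0.00276). Of the 5 oxygen-sensing genes, 1 was called higher and 2 lower, among the latter Egln1, the main oxygen sensor that marks HIF for degradation, at -1.80 (adjusted p = 0.00177). Co-receptors and partners had 2 higher and 1 lower of 7, signalling proteins 2 higher and 1 lower of 11, other ligands 0 higher and 1 lower of 3, and matrix binders 0 higher and 2 lower of 4. Within capillary-leaning cells 5 of 27 tested pathway genes were called (8.89% over all genes), and within venous-leaning cells 8 of 34 (11.4%).

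Myoepithelial cells, where Vegfa rose, had 9 of 29 tested pathway genes called, 3 higher and 6 lower. That is near the 27.6% of all genes called there, so the count is no result about the pathway, and the genes are given singly. Rcan1 rose by 2.48 (adjusted p = 7.90e-05) and Map2k1, the kinase MEK1, by 1.80 (adjusted p = 0.000105). Vegfb, a ligand of VEGFR1, changed by -1.98 (adjusted p = 0.00299) and Dusp5, a phosphatase of ERK, by -1.31 (adjusted p = 0.00174). Of the 5 oxygen-sensing genes tested in these cells, 0 were called higher and 2 lower. In AV cells 5 of 41 were called, 3 higher and 2 lower, where 6.16% of all genes were. Esm1, the endothelial proteoglycan endocan, was 0 to 1.01 TMM-scaled CPM in young and 17.9 to 38.4 in aged AV cells, a log2 difference of 6.16 (adjusted p = 0.000840). Angpt1, the activating ligand of Tie2, changed by 1.91 (adjusted p = 0.0182), Hif1a, the oxygen-regulated factor, by -1.38 (adjusted p = 0.00331) and Sparc, a matrix protein that binds VEGF, by -3.09 (adjusted p = 0.000657). HS cells had 5 of 27 called, where 6.26% of all genes were, with Sparc at -1.77 (adjusted p = 0.0275), the anti-angiogenic matrix protein gene Thbs1 at 1.47 (adjusted p = 0.0477), Ecscr, an endothelial surface protein, at 1.45 (adjusted p = 0.0162) and Hif1a at -1.11 (adjusted p = 0.00759).

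Pericytes had 3 of 25 pathway genes called, near the 11.8% of all genes called there. All 3 were lower: Sema3g at -1.81 (adjusted p = 0.0435), Ptprb, the endothelial phosphatase that dephosphorylates Tie2, at -1.71 (adjusted p = 0.00892) and Sparc at -0.90 (adjusted p = 0.0116). Sema3g is also on the arterial marker list and Ptprb is an endothelial gene, in cells whose endothelial marker sum moved with age. Fibroblasts had 0 of 27 called by edgeR, as for the members.

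The genes closest in pattern to each member were sought among 11509, across 58 sums of mice and cell types (12 types, at least 10 cells each). The correlations are of log2(CPM + 1) across sums that share libraries and cell types, and describe likeness only. Kdr was closest to Cd93, a surface receptor of endothelium (Pearson r = 0.95), Flt1 to Grrp1 (0.95), Tie1 to She (0.94) and Nrp1 to Sparcl1 (0.93). Angpt2 was closest to Meox2, a homeobox factor (0.89), Tek to Fbln5, an elastic fibre protein (0.87), and Flt4 to Fgd5 (0.86). Lymphatic endothelial cells, with 1 to 7 cells per mouse, gave no sum of at least 10 cells and are absent here. Flt4 was 256 CPM in them and 10.7 CPM in the next type, so its likeness rests on low values without its main type. The ligands had looser likeness: Vegfc to Vwa1 (0.82), Pgf to Rhoj (0.77) and Vegfa to Adck4 (0.69). Next in rank were Fabp4 and Adgrl4 for Kdr, Ablim3 and Robo4 for Flt1, Aplnr and Tmem255b for Tie1, Ramp2 and Slfn5 for Nrp1, Pdgfd and Ramp2 for Angpt2, Ramp2 and Dlc1 for Tek, Tmem182 and Dll4 for Flt4, Bace2 and Tmem47 for Vegfc, Phlda3 and Pkia for Pgf, and Abhd13 and Tnfrsf12a for Vegfa. Ramp2, a subunit of the adrenomedullin receptor, stood among the 3 closest genes for Nrp1, Angpt2 and Tek.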

How the data were processed

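The authors deposited a matrix of UMI counts of 27998 genes in 13684 cells from 7 libraries (10x Chromium 3′ v2 kit, Cell Ranger 2.0, mm10, per the labels), already filtered on UMIs, genes and mitochondrial share. A second table deposited by the authors gives each cell's mouse, type name and mitochondrial fraction. Counts were used unnormalized; 0 columns belonged to samples that could not be placed. UMIs were summed per mouse and cell type (at least 3 cells) and ages were compared in each type by edgeR 4.0.16 quasi-likelihood tests (R 4.3.3) with filterByExpr, TMM and Benjamini-Hochberg adjustment over all genes tested, after a test on simulated data. Per-mouse values were compared by exact two-sided permutation tests, adjusted over 6 results. The mouse is the replicate, and letters name different animals. The 10 genes, the pathway and marker lists and the rules were chosen with earlier results of these data known. All members are named, and of the other pathway genes those called, at most the 4 of largest fold in a type. Scrublet called 73 cells (0.533%) doublets, which were kept. Intervals and limits (3 UMIs) cover counting error only. Alternatives were DESeq2 1.42.0, other scalings, filters, thinning, a replicate block and leaving out mice or cells. Protein sequences were not used here.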

Additional observations from a re-analysis of the deposited data

Results flagged for a closer look

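Some single mice stood far from the rest of their age group in a member's level, by a gap to the nearest mouse that exceeded Dixon's 95% critical value for 4 samples. In AV cells, Pgf was 52.1 CPM in Aged B and 7.40 to 8.59 CPM in the other aged mice. Aged B was also set apart in vascular endothelial cells, with Pgf at 20.3 CPM beside 5.35 to 7.42 CPM, and in fibroblasts, with Nrp1 at 212.9 CPM beside 76.0 to 84.5 CPM, from 41 fibroblasts. Vegfa in fibroblasts was 25.3 CPM in Aged C beside 44.8 to 46.0 CPM, from 2 UMIs in 15 fibroblasts. In all, 37 groups of 4 aged mice were examined and 4 stood out, and chance gives about 1 in 20.

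The age difference of Vegfa was larger in myoepithelial cells than in both luminal types by a test of the difference itself, before adjustment. Against HS cells the difference was 1.93 on the scale of log2(CPM + 1), and against AV cells 1.91, each with an exact permutation p = 0.0286, the smallest that 3 against 4 mice can give, and an adjusted p = 0.0571. In both comparisons all 4 aged mice lay above all 3 young mice.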

How the results depend on the processing

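Vegfa and Pgf in myoepithelial cells kept their direction and their call in every alternative in which they were tested (17 and 16). Sums thinned to equal totals left 1 member called in myoepithelial cells, 0 in HS, 0 in AV cells and 0 in pericytes, and 5 in vascular endothelial cells. In HS cells DESeq2, the replicate block and the removal of doublets each gave 0. With library size scaling there were 2 calls in AV cells and 5 in pericytes. Without a filter on low counts there were 2 in AV cells, 1 in fibroblasts and 6 in pericytes. In pericytes DESeq2 gave 0 and the removal of cells with endothelial and pericyte UMIs gave 3. The replicate block gave 5 members in vascular endothelial cells and 3 in pericytes. The letters name different animals and same-lettered mice did not deviate together, so the block pairs nothing. It changed no other count of members. Leaving out each mouse gave 2 to 2 members in myoepithelial cells, 0 to 0 in HS cells, 0 to 2 in AV cells, 4 to 8 in vascular endothelial cells and 0 to 3 in pericytes. In capillary-leaning endothelial cells 2 members and 5 pathway genes were called, and in venous-leaning cells 2 and 8 (settings chosen after the data were seen, like library size scaling). Angpt2 changed sign in the capillary-leaning cells but was not called, at -0.33 ± 0.39 (SE, edgeR adjusted p = 0.683), from 3 to 15 UMIs per aged mouse. The log2 ratio of Flt1 to Kdr changed by 0.62 in cells thinned to 2000 UMIs (exact permutation p = 0.0286). The causes of these shifts were not tested, except that thinning removes UMIs. Over single members, 472 values kept their side of the threshold, 46 lost it and 19 gained it. The 1 other, that of Angpt2 above, lost its call and changed sign. Counts of all genes called moved too: 1860 in myoepithelial cells became 643 to 2222, 529 in HS cells 134 to 1215, 678 in AV cells 181 to 1039, 175 in fibroblasts 30 to 582, 2099 in vascular endothelial cells 279 to 3026 and 307 in pericytes 123 to 560. Requiring 10 cells per mouse left no fit for Mb macrophages.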
